A study of Homo sapiens with 20 samples.

Results

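The GADD45 family was examined in NGP cells, a human neuroblastoma cell line, after exposure to nutlin-3. The members GADD45A, GADD45B and GADD45G were taken by their GENCODE gene names, and the estimated counts of their transcripts were summed. All 3 passed the filter of at least 1 count in each condition, among 27697 genes tested. There were 10 samples in each of 2 groups: a nutlin group, exposed to the racemic drug at 8 µM, and a vehicle group, exposed to ethanol alone. Poly(A)-selected, stranded RNA libraries were sequenced. All samples came from the same cell line and carried no other labelled alteration, and the duration of the treatment was not given in the sources used here.

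GADD45 proteins are small, acidic proteins without known enzymatic activity, and they act by binding other proteins. Their partners include MAP3K4, the kinase that feeds the p38 and JNK stress pathways, the cell cycle proteins CDK1, cyclin B1, p21 and PCNA, and enzymes that remove methylated cytosine from DNA. Nutlin-3 occupies the p53-binding pocket of MDM2, the ubiquitin ligase that keeps p53 low, and GADD45A is a textbook target of p53 that is named for its response to growth arrest and DNA damage.

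The libraries held 14455477 to 19532971 estimated counts. The 11 markers of adrenergic neuroblastoma cells all had a mean of at least 1 CPM (counts scaled to a common library size) in both groups, and their summed level was 8703 to 10000 CPM in vehicle and 8480 to 10060 CPM in nutlin samples. The summed level of 3 epithelial markers was 1.08 to 2.42 CPM in vehicle and 6.11 to 8.07 CPM in nutlin samples. For the 6 blood and endothelial markers tested it was 1.90 to 4.15 and 4.65 to 7.99 CPM, and for the 4 Schwann and glial markers tested 1.49 to 3.33 and 3.15 to 4.33 CPM. For 6 fibroblast and mesenchymal markers it was 41.5 to 58.7 and 40.2 to 54.1 CPM, but its members moved apart. PDGFRA went from 27.9 to 43.96 CPM in vehicle down to 4.998 to 10.5 CPM in nutlin samples (LFC, the log2 fold change, -2.43) and LUM fell with an LFC of -1.71, while COL1A1 rose from 6.97 to 10.9 CPM up to 29.5 to 40.8 CPM (LFC 1.98). The defining markers SOX10 and CD3E were not tested, as they did not reach 1 count in each condition. The part of these shifts in the results was not tested, and in such bulk samples fewer cells of a type and less RNA per cell cannot be told apart.

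GADD45A (ENSG00000116717.13) lies on chromosome 1, at chr1:67685201-67688334 of GRCh38, on the plus strand. A textbook p53-binding site sits in the third intron of this gene. The letters of the p53 consensus, a pair of adjoining 10-base units, were therefore searched on both strands over the 3200 bases from each gene start. The central 4 bases of each unit had to match, and 1 base off was allowed among the others. A match was present in intron 3 of GADD45A at chr1:67686775-67686794, beginning at base 1575 from the gene start, 1 base off the consensus. It is shown because it places the known response element relative to the transcripts measured here, and its capitals mark the central 4 bases of each unit.
GADD45A intron 3: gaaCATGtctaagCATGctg
The same search matched 36 of 19518 protein-coding genes (0.2%), of which 6 (0.03%) were exact, and it matched neither GADD45B nor GADD45G. A match of letters is a description of the sequence and not a measured binding event.

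GADD45B (ENSG00000099860.9) lies at chr19:2476122-2478259 and GADD45G (ENSG00000130222.11) at chr9:89605012-89606555, both on the plus strand of GRCh38. Promoter sequences from RefSeq (GRCh38.p14) matched 2 of the 3 members, GADD45B and GADD45G. The stretch from 190 to 21 bases before the RefSeq start is shown for both because they share the same 3 kinds of motif in the same order while their levels in these cells were far apart. Capitals mark CACGTG (the E-box read by MYC-type and related factors), CCAAT (read by NF-Y) and TATAA (the core of the TATA box), searched on both strands.
GADD45G (chr9:89604822-89604991): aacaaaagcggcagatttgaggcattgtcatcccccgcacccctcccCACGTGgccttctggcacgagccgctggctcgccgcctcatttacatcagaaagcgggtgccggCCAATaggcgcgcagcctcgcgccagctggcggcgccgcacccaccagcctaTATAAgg
GADD45B (chr19:2475937-2476106): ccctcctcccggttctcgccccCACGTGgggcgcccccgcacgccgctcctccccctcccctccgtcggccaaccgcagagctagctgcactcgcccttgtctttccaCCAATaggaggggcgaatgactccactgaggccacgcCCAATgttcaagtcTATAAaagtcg
Counted from the start, CACGTG began at -143 in GADD45G and at -168 in GADD45B. CCAAT began at -79 in GADD45G and at -82 and -45 in GADD45B, and TATAA at -27 and -31. Over the same stretch, CACGTG was found in 4.7% of 35097 promoters in the table, CCAAT in 25.6% and TATAA in 14%. The stretch was chosen after seeing both sequences, so these shares cannot show whether the shared motifs are unusual.

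**Figure D1:**
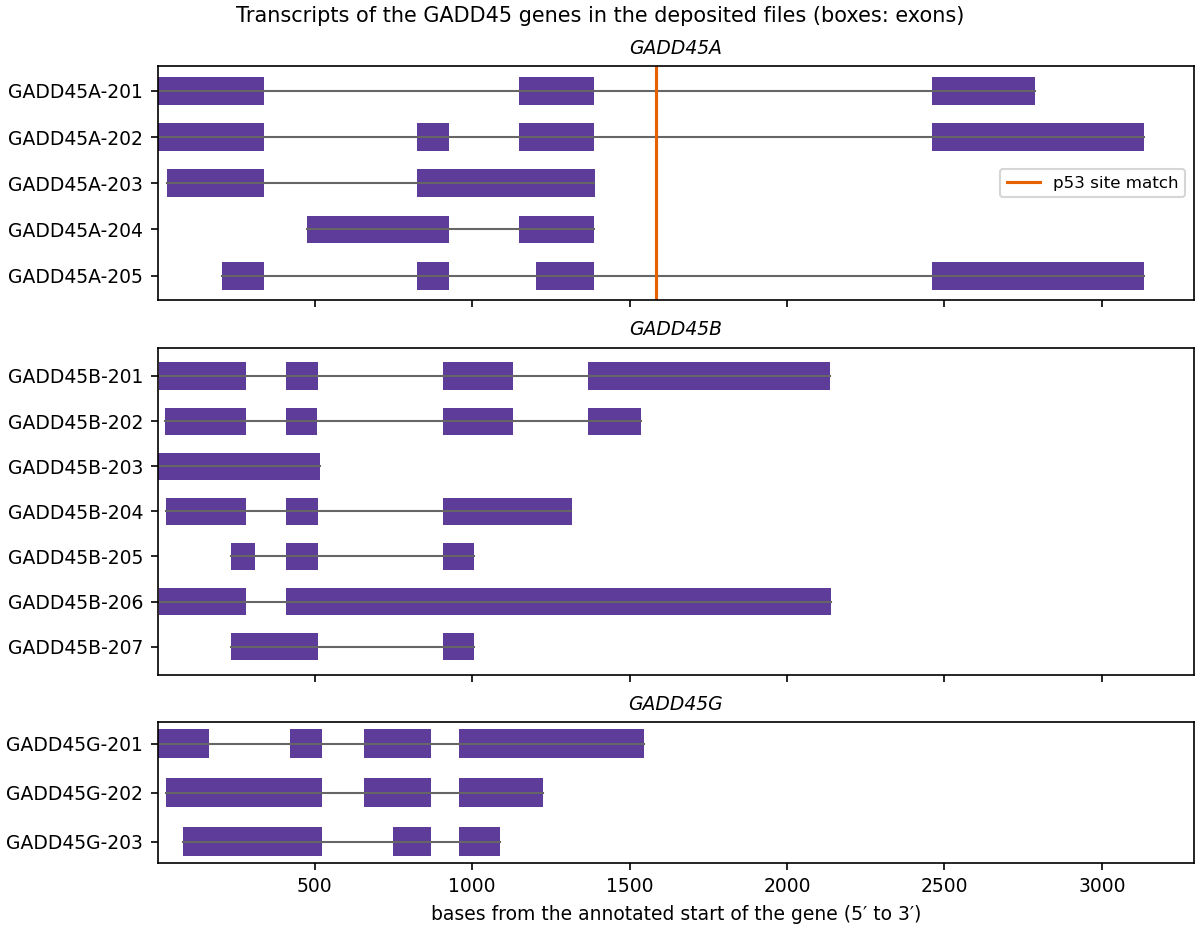
Exons (boxes) and introns (lines) of the GADD45 transcripts that the deposited files hold, in bases from the annotated gene start, with the p53 site match in GADD45A as an orange line. The match falls in intron 3, beyond the last exon of GADD45A-203 and GADD45A-204, and GADD45A-201 lacks the second exon of GADD45A-202.

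All 3 members were higher in nutlin than in vehicle samples. GADD45A and GADD45G rose by similar factors, 7.14-fold and 6.70-fold, from clearly expressed levels. GADD45B rose 8.95-fold by the fit, but from a level at or near 0. By edgeR's quasi-likelihood test at a false discovery rate (FDR) of 5%, 3 of 3 members were significantly differentially expressed (SDE) and higher, where 58.8% of all tested genes were SDE, 32.3% higher and 26.5% lower. Every nutlin sample lay above every vehicle sample in 2 of 3 members, GADD45A and GADD45G, and in 12.2% of all tested genes. The median LFC over all tested genes was 0.19.

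GADD45A is the member most closely tied to p53. Its normalized level (trimmed mean of M-values, TMM, scaling) was lowest at 27.0, median 31.4 and highest at 42.8 CPM in vehicle samples. In nutlin samples it was lowest at 190.2, median 231.1 and highest at 255.7 CPM. The groups did not overlap, and the lowest nutlin sample was 4.44 times the highest vehicle sample. Replicate 4 was the lowest and replicate 10 the highest in both groups, although samples with the same number are not known to be related. The means were 32.2 ± 4.50 and 230.3 ± 18.6 CPM (SD, n = 10 in each group), from 380 to 622 and 2780 to 4029 rounded counts per sample. The LFC was 2.84 with a standard error (SE) of 0.063 and a 95% interval of 2.71 to 2.97 (edgeR quasi-likelihood test, Benjamini-Hochberg adjusted p = 1.79e-25). It ranked 755 among all tested genes by LFC, and 299 among the 5284 SDE genes that were higher whose mean reached 1 CPM.

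GADD45G, which binds many of the same partners and is best known as a growth arrest gene silenced in tumours, was expressed at a lower level. It was lowest at 4.97, median 6.03 and highest at 7.56 CPM in vehicle samples, and lowest at 34.9, median 41.1 and highest at 45.9 CPM in nutlin samples. All nutlin samples were above all vehicle samples, with 4.62 times between the nearest of them. The means were 6.07 ± 0.791 and 40.6 ± 3.14 CPM (SD, n = 10 in each group), from 70 to 115 and 510 to 716 counts. The LFC was 2.74 (SE 0.063, 95% interval 2.61 to 2.87, edgeR adjusted p = 3.61e-25), and its rank was 319 among the same 5284 genes.

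GADD45B, the member known for its induction by NF-kB and TGF-beta signalling, was barely detected. The vehicle samples held 0 counts in 7 of 10, and 1, 2 and 2 counts in replicates 6, 9 and 10. The nutlin samples held 2 to 10 counts with a median of 5.5, and none was at 0. In CPM the vehicle samples reached 0.138 and the nutlin samples ran from 0.131 over a median of 0.348 to 0.617, so the groups overlapped, with nutlin replicates 4 and 10 just under the highest vehicle sample. In the 7 vehicle samples at 0, an absence could not be told from a low level. About 3 counts, the upper 95% limit for a count of 0, were worth 0.154 to 0.208 CPM per library. Over all libraries there were 5 counts in vehicle and 56 in nutlin samples, a ratio of 12.4 per total count (exact 95% interval 4.99 to 39.5, covering counting error only). The fitted LFC was 3.16 (SE 0.523, 95% interval 2.09 to 4.23, edgeR adjusted p = 4.96e-06), with a wider interval than those of GADD45A and GADD45G. It was not tested where a minimum of 10 counts was required (edgeR's filterByExpr).

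**Figure D2:**
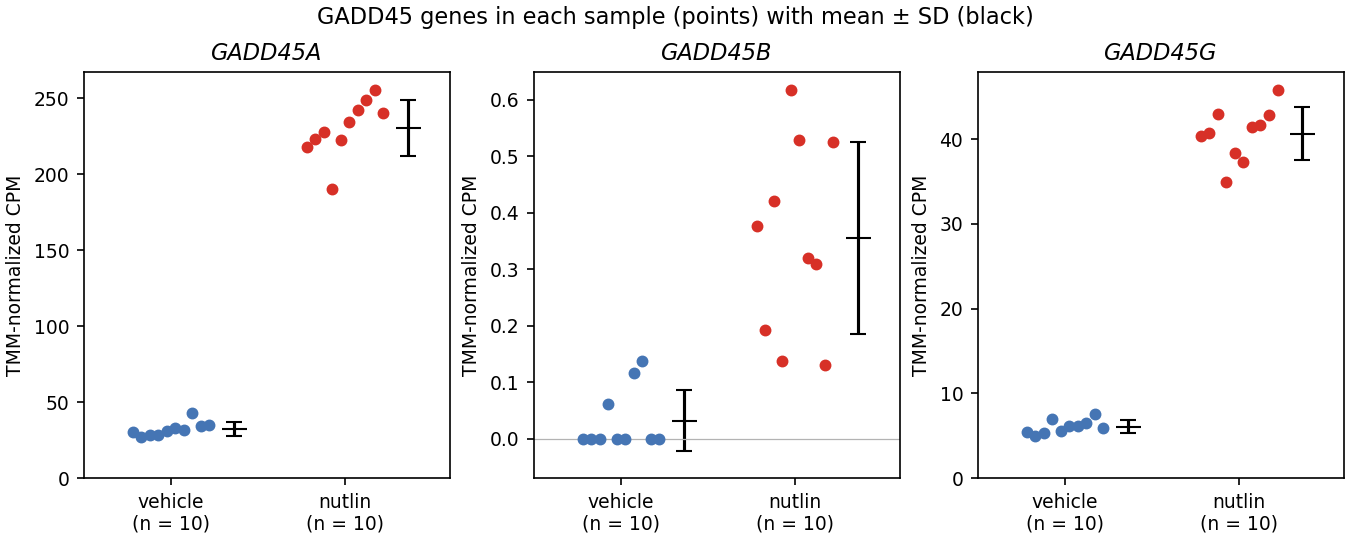
TMM-normalized CPM of each GADD45 gene in the 10 vehicle (blue) and 10 nutlin (red) samples, in order of replicate number, with the mean ± SD in black; each panel has its own scale. The groups are far apart in GADD45A and GADD45G, while GADD45B reaches at most 0.617 CPM and its groups overlap.

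Per length, in TPM, which divides counts by effective length, the order was GADD45A, GADD45G, GADD45B in each of the 20 samples. GADD45A was at 29.3 ± 3.48 TPM in vehicle and 201.0 ± 16.9 TPM in nutlin samples (SD, n = 10 each), GADD45G at 7.02 ± 0.827 and 46.4 ± 4.09 TPM. GADD45B was at 0 to 0.701 TPM in vehicle and 0.118 to 0.966 TPM in nutlin samples. Among 17351 mRNAs ordered by mean TPM, GADD45A was at place 3897 in vehicle and 379 in nutlin samples, GADD45G at 8359 and 2171, and GADD45B at 15020 and 13360. The TPM of GADD45A over that of GADD45G was 3.21 to 5.07 in vehicle samples (median 4.26) and 4.02 to 4.81 in nutlin samples (median 4.32). Neighbours in the order were thus apart by more than their spread.

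Whether the members differed in response was tested on the log2 ratio of the counts of a pair within each sample, which needs no library scaling. The ratio of GADD45A to GADD45G was 2.40 ± 0.196 in vehicle and 2.50 ± 0.088 in nutlin samples (SD, n = 10 each). The difference of 0.10 did not pass (two-sided permutation test with 100000 resamples, p = 0.168, adjusted p = 0.504 over the 3 ratios). Its 95% interval ran from -0.05 to 0.25, which allows a response of GADD45A from 0.967 to 1.19 times that of GADD45G. For GADD45A over GADD45B the difference was 0.05 (permutation p = 0.888, adjusted 0.897) with an interval of -0.72 to 0.83, and for GADD45G over GADD45B it was -0.05 (permutation p = 0.897, adjusted 0.897) with an interval of -0.82 to 0.73. The pairs with GADD45B rested on a pseudocount of 0.5 in the samples at 0. With a pseudocount of 1 these differences were 0.71 (permutation p = 0.019, adjusted 0.057) and 0.60 (permutation p = 0.0424, adjusted 0.0636). The second thus changed sign, and neither passed after adjustment. On TPM + 0.1 they were 0.84 and 0.77, and both passed narrowly (permutation test, adjusted p = 0.0495 each). Whether the pairs with GADD45B passed thus depended on the setting.

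The transcripts of the members were fitted with all 128634 transcripts tested, of which 12.2% were SDE and higher. Among those of GADD45A, 4 of 5 were SDE and higher, among those of GADD45B 1 of the 4 tested (of 7 in the files), and among those of GADD45G 3 of 3. None was lower. With the replicate number as a block, GADD45B-201 (adjusted p = 0.121) and GADD45G-203 (adjusted p = 0.308) no longer passed, and their LFCs were 1.90 and 1.70 with limma voom. The transcripts of a member overlap, and the error of assigning reads among them was not in the fit.

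GADD45A-202, with 4 exons and 495 coding bases, carried most of the signal of its gene. Its estimated count was 281.6 to 540.4 in vehicle samples (median 378.5) and 2373 to 3495 in nutlin samples (median 3154), with no overlap and an LFC of 2.89 (SE 0.090, edgeR adjusted p = 7.48e-17). It made up 62.3 to 76.5% of the gene TPM in vehicle samples (median 72.9%) and 74.0 to 78.7% in nutlin samples (median 76.6%). These ranges overlapped, and the difference in share was not tested.

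GADD45A-201 lacks the 102-base second exon and has 393 coding bases. It held 19.6 to 53.6 counts in vehicle and 172.4 to 265.0 counts in nutlin samples, again without overlap (LFC 2.66, SE 0.171, edgeR adjusted p = 2.59e-11). Its share of the gene TPM was 6.13 to 19.5% in vehicle (median 12.3%) and 9.69 to 13.03% in nutlin samples (median 11.04%). The retained-intron transcripts GADD45A-203 and GADD45A-204 rose with LFCs of 2.50 and 2.50 (edgeR adjusted p = 2.64e-13 and 1.22e-08). GADD45A-205, with 441 coding bases, held 48.9 counts in vehicle replicate 4 and 0 in the other 9 vehicle samples, against 0 to 28.0 counts in nutlin samples. Its LFC of 0.50 did not pass (SE 1.28, edgeR adjusted p = 0.845).

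GADD45G-201, with 4 exons and 477 coding bases, made up 87.9 to 97.8% of the gene TPM in vehicle and 92.4 to 97.7% in nutlin samples. It rose from 67.9 to 112.7 counts to 486.5 to 687.8 counts (LFC 2.75, SE 0.078, edgeR adjusted p = 1.74e-17). GADD45G-202 held 2.07 to 9.10 and 10.8 to 43.1 counts (LFC 2.38, edgeR adjusted p = 1.28e-05). GADD45G-203 was at 0 in 8 of 10 vehicle samples and in 4 of 10 nutlin samples, and reached 8.14 counts (LFC 3.16, edgeR adjusted p = 0.0193). Of GADD45B only GADD45B-201, with 480 coding bases, passed (LFC 3.26, SE 0.897, edgeR adjusted p = 0.00938), with 9 of 10 vehicle samples at 0 and nutlin samples at 0 to 8.28 counts. GADD45B-202, GADD45B-203 and GADD45B-205 held at most 6 counts in any sample and did not pass (adjusted p from 0.117 to 0.762). GADD45B-204 and GADD45B-207 were at 0 in all 20 samples.

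**Figure D3:**
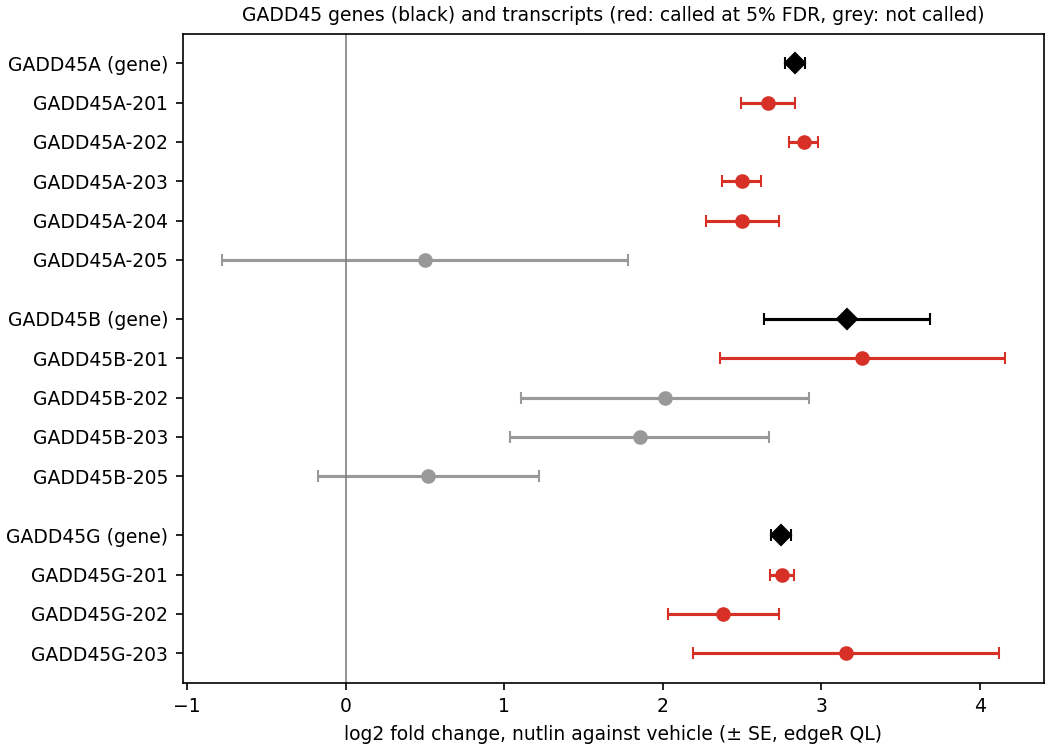
LFC (nutlin against vehicle, ± SE, edgeR quasi-likelihood) of the GADD45 genes (black diamonds) and their tested transcripts (red, SDE at 5% FDR; grey, not SDE). The main transcripts lie near the value of their gene, and the wide bars belong to transcripts with few counts.

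**Figure D4:**
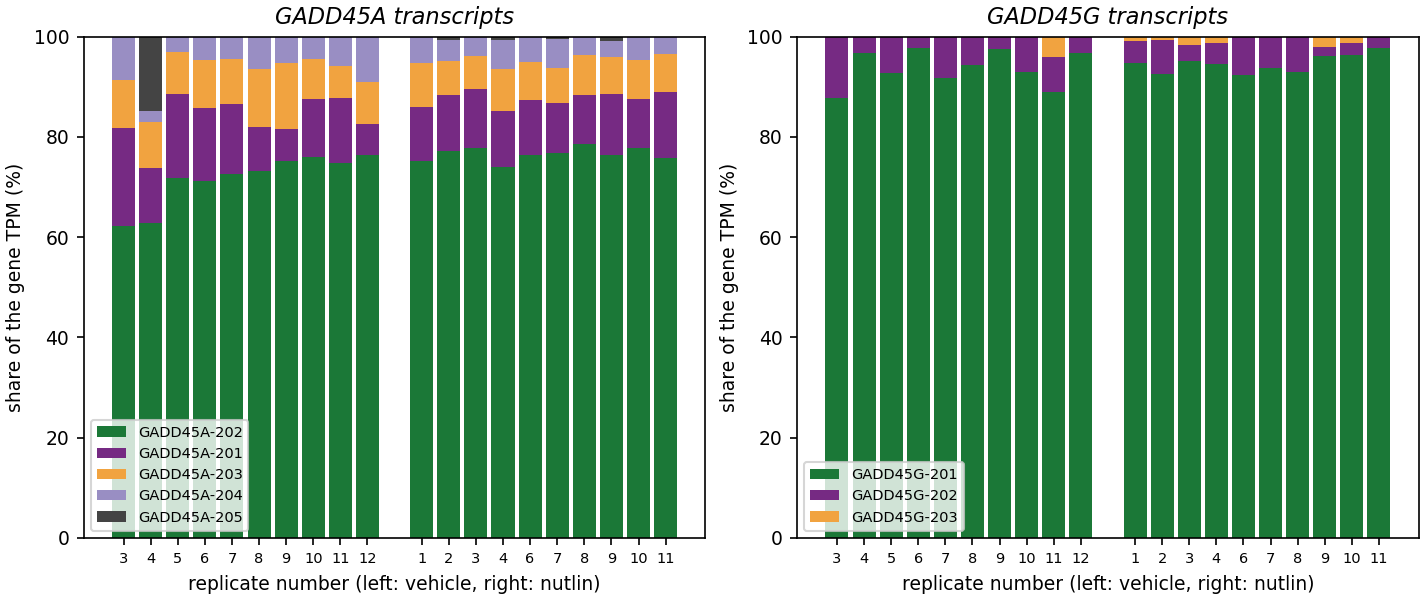
Share of the gene TPM (%) taken by each transcript of GADD45A and GADD45G in every sample, with vehicle samples on the left and nutlin samples on the right of each panel. GADD45A-202 and GADD45G-201 hold most of the TPM in each sample, and GADD45A-205 takes 14.8% in vehicle replicate 4.

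Reads of the members were not shared, at the resolution of the quantification, with other genes among the transcripts matched to GENCODE release 44. The 7862 quantified transcripts without such a match were not searched. Of the 31-base words in their transcripts (1981 in GADD45A, 2250 in GADD45B and 1348 in GADD45G), 0 occurred in another member or another gene, and no annotated gene overlapped a member.

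The other genes of the pathway were described from lists, without a test of a list. Of 61 pathway genes, 25 were SDE and higher, 29 SDE and lower, and 7 did not pass, with a median LFC of -0.10. These 61 include the 7 established p53 targets chosen as a check, which were all SDE and higher. Over all tested genes 32.3% were SDE and higher, 26.5% SDE and lower, and the median LFC was 0.19. Among the 15168 genes whose mean reached 1 CPM, as it did for nearly all of the pathway genes, 34.8% were higher, 45.3% lower, and the median LFC was -0.08. Counted with these p53 targets, the lists together were thus near the values of expressed genes. With an offset for effective length, 24 pathway genes were SDE and higher and 26 lower.

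In the kinase route downstream of GADD45, 10 of 14 members were SDE and lower, 3 higher and 1 did not pass (median LFC -0.28), and with the effective length offset 8 were lower. MAP3K4, the kinase that GADD45 proteins activate by direct binding, was at 32.0 to 40.1 CPM in vehicle and 23.0 to 27.4 CPM in nutlin samples. It was 1.501-fold lower (LFC -0.59, edgeR adjusted p = 9.08e-13). MAP2K6, which phosphorylates p38, went from 4.79 to 10.6 CPM down to 0.679 to 2.58 CPM (LFC -2.19, edgeR adjusted p = 7.4e-13, and -1.41 with the effective length offset). MAPK10 and MAPK9, of the JNK group, had LFCs of -1.55 and -0.63 (edgeR adjusted p = 1.47e-21 and 3.3e-11). MAPK11, a p38 kinase, moved the other way from a low level, 0.367 to 1.46 CPM in vehicle against 3.33 to 6.39 CPM in nutlin samples (LFC 2.69, edgeR adjusted p = 1.37e-14).

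Of the cell cycle and nuclear proteins that bind GADD45, 5 of 6 were SDE and lower, and 1 higher (median LFC -1.55). CDK1, the mitotic kinase, was at 157.9 to 195.8 CPM in vehicle and 32.8 to 49.1 CPM in nutlin samples, 4.47-fold lower (edgeR adjusted p = 3.68e-22). CCNB1, which encodes its partner cyclin B1, was 8.35-fold lower (edgeR adjusted p = 1.64e-26), and AURKA, a mitotic kinase, was 6.03-fold lower (edgeR adjusted p = 4.64e-25). None of these groups overlapped, but how many of all tested genes were separated downward in this way was not counted. PCNA, the sliding clamp of DNA replication, was 1.92-fold lower (edgeR adjusted p = 1.06e-15). GADD45GIP1, named for its binding to GADD45G, was 1.51-fold lower (edgeR adjusted p = 2.93e-09). CDKN1A, which encodes p21, was the exception, at 18.8 to 54.9 CPM in vehicle and 1318 to 1833 CPM in nutlin samples, a 51.1-fold rise (edgeR adjusted p = 3.85e-24).

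Among 10 partners in demethylation and excision repair, 3 were SDE and higher, 5 lower and 2 did not pass (median LFC -0.18). LFCs ran from -0.92 to 0.39. MBD4, a glycosylase of mismatched thymine, was 1.89-fold lower (edgeR adjusted p = 5.43e-17), and ING1, a chromatin adaptor, 1.58-fold lower (edgeR adjusted p = 5.34e-13). Of the methylcytosine oxidases, TET1 had an LFC of -0.55 (edgeR adjusted p = 6.28e-08) and TET2 one of 0.39 (edgeR adjusted p = 1.54e-09).

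Of 23 regulators of GADD45 transcription, 10 were SDE and higher, 9 lower and 4 did not pass (median LFC 0.03). MYC was at 0.306 to 0.902 CPM in vehicle and 0.940 to 6.12 CPM in nutlin samples (LFC 2.61, edgeR adjusted p = 8.99e-10). CEBPA, a differentiation factor, had an LFC of 2.50 (edgeR adjusted p = 1.49e-13), and FOXO1, a factor of stress and growth control, one of 2.15 (edgeR adjusted p = 3.8e-09). All 3 had means of at most 2.17 CPM. BRCA1, a repair protein that also acts on GADD45A transcription, went from 138.9 to 163.5 CPM down to 23.9 to 34.6 CPM (5.12-fold lower, edgeR adjusted p = 2.27e-25).

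The other stress genes with a GADD name both rose (2 of 2). DDIT3, also GADD153, which encodes the stress factor CHOP, was at 8.96 to 17.55 CPM in vehicle and 41.9 to 67.5 CPM in nutlin samples (4.73-fold, edgeR adjusted p = 5.37e-19). PPP1R15A, also GADD34, which directs a phosphatase to eIF2-alpha, was at 25.6 to 34.5 and 79.3 to 121.9 CPM (3.65-fold, edgeR adjusted p = 2.51e-20). Neither shares the fold of the GADD45 proteins. In both, every nutlin sample lay above every vehicle sample, as in 12.2% of all tested genes.

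The established p53 targets chosen as a check rose in 7 of 7 cases (median LFC 3.14). MDM2, whose product nutlin-3 binds, was at 198.9 to 290.3 CPM in vehicle and 4797 to 6005 CPM in nutlin samples (22.7-fold, edgeR adjusted p = 5.61e-29). FAS, a death receptor, had an LFC of 5.80 (edgeR adjusted p = 1.36e-22) and SESN1, a stress-induced regulator of mTORC1, one of 3.14 (edgeR adjusted p = 5.87e-27). TP53I3 and BAX, both linked to cell death, had LFCs of 2.08 and 1.63 (edgeR adjusted p = 1.21e-22 and 1.13e-23). The LFCs of the GADD45 genes lay inside the range of these targets, 1.496 to 5.80.

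**Figure D5:**
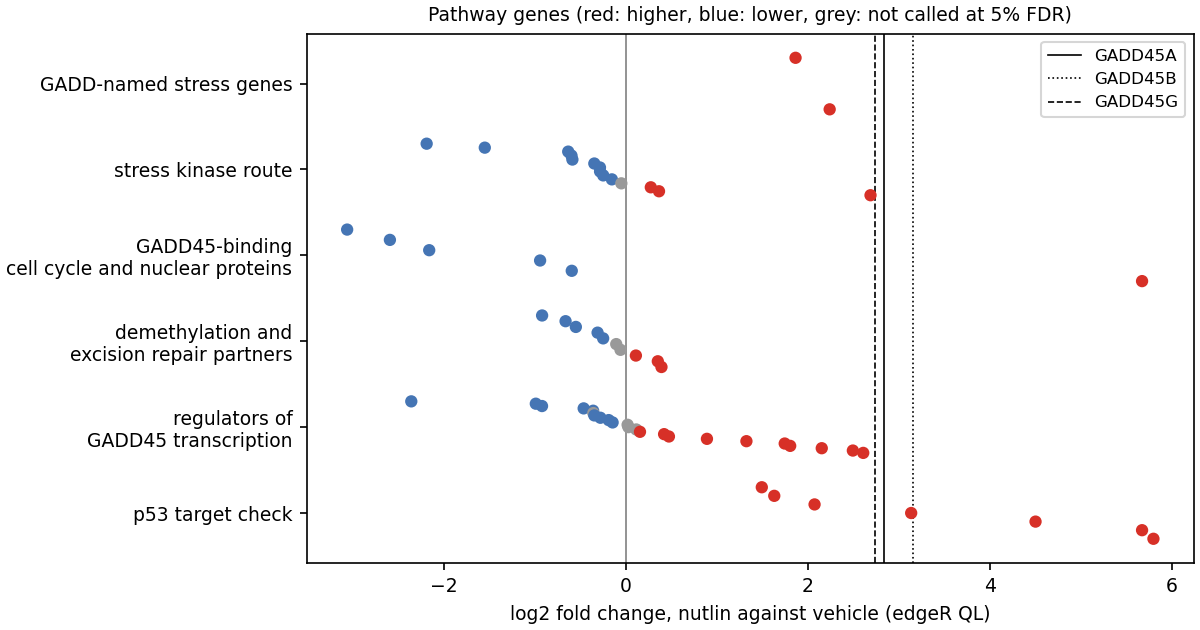
LFC (nutlin against vehicle) of each gene in the pathway lists (red, SDE and higher; blue, SDE and lower; grey, not SDE), with vertical lines at the LFC of the 3 GADD45 genes. Most kinases and binding partners lie below 0, while CDKN1A and the p53 targets lie above.

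The genes whose profile over the 20 samples was most like that of a member were found by the root mean square difference in log2 CPM, each gene centred on its vehicle mean, among the 15167 genes whose mean reached 1 CPM. For GADD45A they included PLXNB2 (0.13), S100A11 (0.14), PLK2 (0.14) and TIGAR (0.14), and the value for GADD45G was 0.16. For GADD45G they were PLXNB2 (0.15), RGMA (0.15), TIGAR (0.15), PODXL (0.16) and GADD45A (0.16). GADD45B had a mean below 1 CPM and was not compared. The nearest values were close to each other, so their order carries little weight. Centring on the vehicle mean makes this measure follow the LFC, so genes of similar LFC are found by design. The LFCs of the genes named here ran from 2.61 (RGMA) to 2.94 (S100A11). Joint variation of samples within a group was not tested.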

How the data were processed

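RNA-seq of the NGP cell line was analysed in 20 samples, 10 per group, grouped by their titles. The authors quantified read pairs with kallisto 0.42.4 (submitters' processing notes) against Ensembl release 85 transcripts of GRCh38. The authors deposited, per transcript, estimated counts without normalization, TPM scaled by length and depth, and effective lengths in bases. Strand use in quantification was not given in the sources used here.

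Transcripts were matched by Ensembl identifier to GENCODE release 44 (191106 of 198968, 96.05%). Estimated counts were summed per gene and rounded. Protein-coding genes and lncRNAs reaching 1 count in both conditions entered the test with edgeR 4.0.16 (TMM, quasi-likelihood test, Benjamini-Hochberg over all genes or all transcripts, 5% FDR) in R 4.3.3, checked on simulated data. Log2 count ratios (pseudocount 0.5) were compared with 2-sided permutation tests (100000 resamples) in scipy 1.17.1. Intervals are at 95%, those of ratio differences allowing unequal variances.

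DESeq2 1.42.0, limma 3.58.1, other filters and scalings, a replicate block, TPM (pseudocounts 0.1 and 1) and single-sample removal were the alternatives. P-values measure the spread between these cultures of the same line. Named genes were the members, 8 genes set by name, up to 4 further SDE genes per list by absolute LFC with a mean of at least 1 CPM, the neighbouring genes, and the 5 most similar profiles. Results for 2 genes that these lists or rules hold are not reported here. The members and lists were chosen with earlier results of these data known, and the promoter stretch after seeing the sequences.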

Additional observations from a re-analysis of the deposited data

Results flagged for a closer look

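Each value below was a sample whose gap to the nearest other sample of its group, divided by the range of the group, was above Dixon's critical value (95% level) for 10 samples. It was exceeded in 9 of 36 groups of values (genes, tested transcripts and ratios). Chance flags about 1 in 20 groups of normally spread values, which does not apply to counts near 0, where a single sample above 0 exceeds the limit by construction. At the gene level it was GADD45A in vehicle replicate 10 (42.8 CPM), which was also the highest but not past the limit in counts (622 beside 581) and in TPM (33.98 beside 32.2). Among well-covered transcripts it was GADD45A-202 in nutlin replicate 4, the lowest of its group at 2373 estimated counts. GADD45A-205 held 48.9 estimated counts in vehicle replicate 4 and 0 in the other vehicle samples. The others were transcripts with few estimated counts. They were GADD45B-201 in vehicle replicate 10 (1.93), GADD45B-202 in nutlin replicate 1 (6) and in vehicle replicate 6 (1), GADD45B-203 and GADD45B-205 in vehicle replicate 9 (1 each), and GADD45G-203 in vehicle replicate 11 (2.24).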

How the results depend on the processing

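Leaving out 1 sample moved the LFC of GADD45A from 2.81 to 2.91, of GADD45B from 3.02 (without vehicle replicate 8) to 3.64 (without vehicle replicate 10) and of GADD45G from 2.72 to 2.79, and each stayed SDE in 20 of 20 fits. Under the other alternatives GADD45A ran from 2.74 to 2.91 and GADD45G from 2.57 to 2.82. GADD45B ran from 0.46 on the log2(TPM + 1) scale, where the pseudocount exceeds its level, to 3.49 with DESeq2. On log2(TPM + 0.1) it was 1.94. It was SDE in 10 of 10 alternatives, with adjusted p up to 0.000636, and had no value with edgeR's filterByExpr. The ratios with GADD45B moved with the pseudocount. At 1 in place of 0.5 the difference was 0.71 for GADD45A over GADD45B (permutation p = 0.019, adjusted 0.057 over the 3 ratios) and 0.60 for GADD45G over GADD45B (permutation p = 0.0424, adjusted 0.0636). On TPM + 0.1 they were 0.84 (permutation p = 0.0224) and 0.77 (permutation p = 0.033), both 0.0495 after adjustment and so just inside the 5% limit. Same-numbered samples did not deviate together (r from -0.05 to 0.08 over 8 pairs), so the samples were not taken as paired. With a replicate block over the 16 samples sharing a number, the LFCs were 2.87, 2.96 and 2.73 for GADD45A, GADD45B and GADD45G, against 2.86, 2.97 and 2.73 for the same 16 samples without it, which was chosen after seeing the data. Under the block GADD45G-203 (LFC 2.998, adjusted p = 0.308) and GADD45B-201 (LFC 3.52, adjusted p = 0.121) no longer passed. The cause was not tested. Of the other comparisons with an alternative, all 208 for named genes outside the family and 40 of 42 for transcripts kept direction and call. With edgeR's filterByExpr, GADD45A-205, GADD45G-203 and the GADD45B transcripts were not tested and are not among these 42. With that filter 6 member transcripts were SDE and higher, against 8 in the main fit. Of the counts for single lists, 92 were equal and 4 differed, by at most 2 genes. For all pathway genes together, the effective length offset moved the lower count from 29 to 26 and the higher count from 25 to 24.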

Other observations

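The nearest protein-coding neighbours of the members, all on the opposite strand, were lower in 3 of 6 cases, higher in 1 and did not pass in 2. Over all tested genes 58.8% were SDE and 26.5% lower. Among genes whose mean reached 1 CPM, as it did for all neighbours but GNG7, 45.3% were lower. A count over 6 genes is too small to be set apart from these shares. Beside GADD45A, GNG12 (13.1 kb away), a G protein subunit, had an LFC of -1.36 (edgeR adjusted p = 3.68e-18), and SERBP1 (254.8 kb), an mRNA-binding protein, one of -0.57 (edgeR adjusted p = 1.68e-16). Beside GADD45B, LMNB2 (19.2 kb), which encodes lamin B2, had an LFC of -1.93 (edgeR adjusted p = 2.03e-26), and GNG7 (33.0 kb), another G protein subunit, one of 0.34 that did not pass (edgeR adjusted p = 0.0907). Beside GADD45G, SEMA4D (106.9 kb), a semaphorin, had an LFC of -0.10 that did not pass (edgeR adjusted p = 0.13), and DIRAS2 (1003.3 kb), a small GTPase, rose with an LFC of 0.81 (edgeR adjusted p = 9.76e-07).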
